A study of Mus musculus with 7 samples.

Results

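The imprinted genes H19, Dlk1, Meg3, Peg3, Mest, Plagl1, Grb10, Ndn, Cdkn1c and Zdbf2, which act in embryonic growth, were followed by RNA sequencing in cultured mouse epicardial cells with and without lamin B1. They were chosen by name and were 10 of 22738 gene rows, and each matched 1 row. There were 3 libraries from Lmnb1-/- embryos, which lack the nuclear lamina protein lamin B1, and 4 from wild type embryos. Both genotypes were on one mixed background of C57BL/6, 129S4Sv/Jae and 129S6/SvEvTac. Ventricles of E12.5 embryos were laid on gelatin so that the outer cell layer of the heart could migrate out, the heart was taken away after 48 hours, and the explant grew for a further 72 hours without treatment. The labels call the libraries replicates and do not name embryos, so p-values measure the spread between libraries, which may be partly technical. The study concerns how lamin B1 bears on the timing of epicardial migration.

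An imprinted gene is transcribed mainly from the allele inherited from a single parent, according to methylation laid down in egg or sperm. In mouse, H19, Meg3, Grb10 and Cdkn1c are expressed mainly from the maternal allele in most tissues, and Dlk1, Peg3, Mest, Plagl1, Ndn and Zdbf2 from the paternal allele. Several of the maternally expressed genes restrain fetal growth and several of the paternally expressed ones promote it. Plagl1, also called Zac1, encodes a zinc finger transcription factor that in mouse regulates other imprinted genes, and many imprinted genes are switched down together after birth. The counts do not separate the alleles, so imprinting itself was not measured.

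H19 and Meg3 are long noncoding RNAs that carry microRNA hairpins within annotated exons, and Mest carries one outside its exons. Mature sequences from RefSeq (GRCm38.p6) are given 5′ to 3′ with the seed, bases 2 to 8, in capitals. They are shown because the H19 hairpin has a row of its own in the counts. The 4 seeds below differ from each other.
mmu-miR-675-5p, in H19, chr7:142577112-142577133, minus strand: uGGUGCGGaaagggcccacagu
mmu-miR-675-3p, in H19, chr7:142577078-142577099, minus strand: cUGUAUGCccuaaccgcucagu
mmu-miR-335-5p, in Mest, chr6:30741314-30741336, plus strand: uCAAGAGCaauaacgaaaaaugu
mmu-miR-770-5p, in Meg3, chr12:109563710-109563731, plus strand: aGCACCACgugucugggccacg

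RefSeq promoter windows, 250 bases before to 50 bases after an annotated start, were found for 8 of the 10 genes, in 13 windows. They were searched on both strands for TGCCGC, the hexamer that ZFP57 binds when it is methylated at imprinted control regions. It occurred in 6 of the 13 windows and in windows of 5 of the 8 genes, and in 11.6% of all 32851 promoter windows of the same length. Of the 6 windows, 2 belong to Mest and overlap almost completely. Mest and Grb10 are shown because they were the only members whose genotypes did not overlap, and Plagl1 and Zdbf2 because they were the pair of highest correlation. For each a window with a match is shown. Mest, Grb10 and Zdbf2 each also had a window without a match, which is not shown. Matches are in capitals, read as GCGGCA where they lie on the other strand.
Mest, chr6:30737800-30738099, plus strand: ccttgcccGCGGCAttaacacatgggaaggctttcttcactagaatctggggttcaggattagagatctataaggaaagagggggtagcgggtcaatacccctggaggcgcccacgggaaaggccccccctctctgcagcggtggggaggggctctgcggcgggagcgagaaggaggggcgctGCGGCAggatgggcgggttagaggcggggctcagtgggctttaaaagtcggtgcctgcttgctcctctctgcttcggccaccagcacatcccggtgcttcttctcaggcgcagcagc
Grb10, chr11:12037371-12037670, minus strand: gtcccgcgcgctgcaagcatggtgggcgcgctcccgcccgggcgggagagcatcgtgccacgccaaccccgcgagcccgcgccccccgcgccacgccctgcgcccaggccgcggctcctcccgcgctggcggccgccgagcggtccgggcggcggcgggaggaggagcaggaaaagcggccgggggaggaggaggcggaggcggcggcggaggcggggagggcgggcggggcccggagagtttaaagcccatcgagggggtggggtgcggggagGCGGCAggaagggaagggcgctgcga
Plagl1, chr10:13090582-13090881, plus strand: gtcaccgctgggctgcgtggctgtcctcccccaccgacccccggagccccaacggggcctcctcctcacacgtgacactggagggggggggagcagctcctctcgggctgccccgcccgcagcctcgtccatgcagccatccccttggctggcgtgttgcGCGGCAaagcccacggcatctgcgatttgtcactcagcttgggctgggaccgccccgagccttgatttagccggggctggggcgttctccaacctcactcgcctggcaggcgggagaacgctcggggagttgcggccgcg
Zdbf2, chr1:63200108-63200407, plus strand: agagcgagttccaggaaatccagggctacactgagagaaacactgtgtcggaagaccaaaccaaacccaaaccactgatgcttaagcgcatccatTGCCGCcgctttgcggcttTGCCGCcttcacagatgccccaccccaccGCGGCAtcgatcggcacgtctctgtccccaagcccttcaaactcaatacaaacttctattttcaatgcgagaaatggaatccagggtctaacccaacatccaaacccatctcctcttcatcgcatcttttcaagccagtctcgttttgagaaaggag
The GC content of these windows was 62.7% for Mest, 80% for Grb10, 70.7% for Plagl1 and 51.3% for Zdbf2. In the windows without a match it was 59.3% for Mest, 52.3% for Grb10 and 74.7% for Zdbf2. A match describes the letters only.

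Total counts per library were 1786519 to 3066936 in Lmnb1-/- explants and 1024898 to 2732236 in wild type explants, the lowest being wild type replicate 2. Lmnb1 was at 1.49 ± 0.498 CPM in Lmnb1-/- (SD, n = 3) and 204 ± 24.6 CPM in wild type (SD, n = 4), where CPM is the count relative to the scaled library total, and 3 counts made 0.978 to 2.93 CPM in these libraries. All 11 epicardial markers examined passed the count filter, with a summed level of 2781 to 3182 CPM in Lmnb1-/- and 3105 to 4181 CPM in wild type explants. Summed fibroblast markers were at 7662 to 8761 CPM in Lmnb1-/- and 8852 to 17780.4 CPM in wild type, the highest in wild type replicate 2. In the edgeR fit below, 5 of 9 smooth muscle and pericyte markers tested fell (adjusted p under 0.05), beside 0.343% of all tested genes. All 9 had a log2 fold change below 0, with a median of -1.02. Summed markers of this type were at 8130 to 8872 CPM in Lmnb1-/- and 10899 to 12179 CPM in wild type. The part of such cells in the results below was not tested. Summed macrophage and leukocyte markers were at 38.6 to 557 CPM in Lmnb1-/- and 72.3 to 301 CPM in wild type. Summed cardiomyocyte markers were at 449 to 597 CPM in Lmnb1-/- and 404 to 790.3 CPM in wild type. Of these 10 markers only 3 passed the count filter, Tnnt2, Actc1 and Myl7. Most of the sum was Myl7, with a mean of 385 CPM in Lmnb1-/- and 412 CPM in wild type. Myh7 had no count, and Myh6 and Tnni3 held 4 and 1 in all 7 libraries together. Xist and Y-linked counts read as male in all 3 Lmnb1-/- libraries and in wild type replicates 2 and 4, and as female in wild type replicates 1 and 3. In such mixed cultures fewer cells of a type and less RNA per cell cannot be told apart.

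None of the 10 imprinted growth genes passed the test between genotypes, given the spread between libraries. In edgeR's quasi-likelihood fit, with p-values adjusted by Benjamini-Hochberg over all 10775 tested genes, 0 of 10 fell under the threshold of 0.05. Of all tested genes 0.705% did (76 of 10775), 0.362% higher and 0.343% lower in Lmnb1-/-. Their log2 fold changes, Lmnb1-/- over wild type, ran from -0.62 for Meg3 to 0.61 for Dlk1, with 6 above 0, 4 below and a median of 0.07. The median over all tested genes was -0.02. At an unadjusted p under 0.05 there were 2 members, Mest and Grb10, and 13.6% of all genes. CPM ranges of the genotypes did not overlap in these 2 members, and in 13.3% of all genes. Lmnb1-/- lay above in 1 member and 6.36% of all genes, and below in 1 member and 6.92% of all genes. DESeq2 and limma voom called 0 of 10 as well. The spread between libraries limited what could be seen, and the intervals below show the differences that remain possible.

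**Figure D1:**
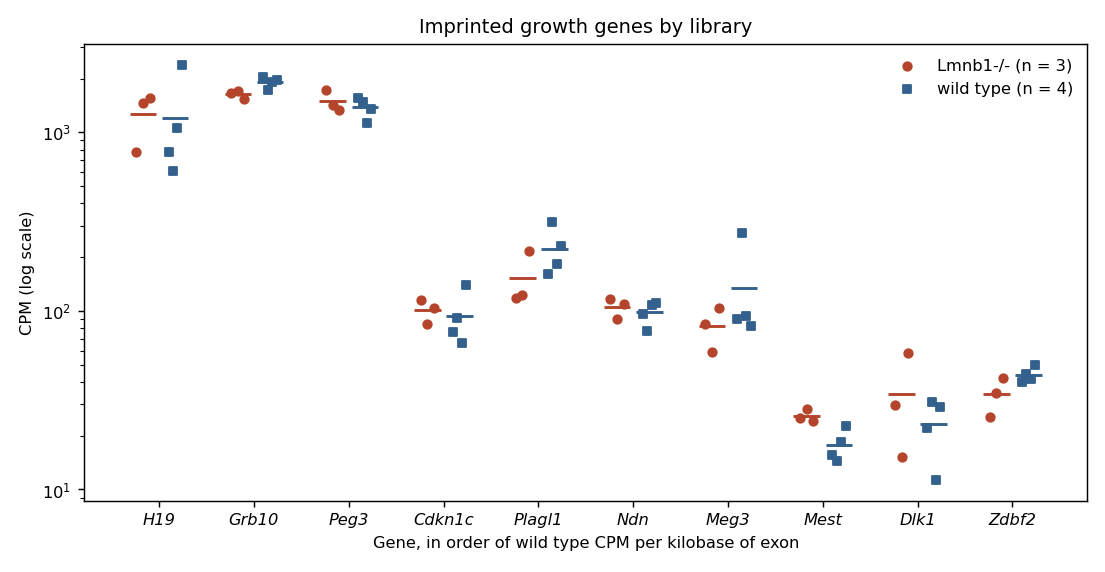
CPM of each gene in each library on a log axis, with Lmnb1-/- libraries as circles (n = 3), wild type libraries as squares (n = 4) and group means as bars. Mest lies wholly higher in Lmnb1-/- and Grb10 wholly lower, while H19 spans 775 to 1546 CPM in Lmnb1-/- and 605 to 2388 CPM in wild type.

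Levels of different genes were compared as CPM per kilobase of annotated exon. In wild type explants H19 stood highest at 528 ± 354 CPM per kilobase (SD, n = 4), followed by Grb10 at 372 ± 26.3 and Peg3 at 159 ± 21.1. The order of H19 and Grb10 was not separated, since their wild type ranges overlapped. Cdkn1c at 48.1 ± 16.8 and Plagl1 at 41.3 ± 12.6 also overlapped, as did the neighbours among Meg3, Mest, Dlk1 and Zdbf2, at 8.58 ± 5.88, 6.43 ± 1.33, 4.89 ± 1.86 and 3.48 ± 0.342 CPM per kilobase. Ndn lay between these groups at 26.6 ± 4.10. In Lmnb1-/- explants the first 4 places and the last were held by the same genes, with H19 at 551 ± 184, Grb10 at 318 ± 18.3, Peg3 at 172 ± 23.7 and Cdkn1c at 52.3 ± 8.02 CPM per kilobase (SD, n = 3). H19, Grb10 and Peg3 together made 87.0 to 91.3% of the summed CPM of the 10 genes in Lmnb1-/- libraries and 81.9 to 89.7% in wild type libraries, a share that is not per length.

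Grb10, an adaptor protein that restrains insulin and IGF1 receptor signalling, was lower in every Lmnb1-/- library than in any wild type library. It had 1653, 1711 and 1527 CPM in Lmnb1-/- replicates 1 to 3, against 2051, 1729, 1902 and 1953 CPM in wild type replicates 1 to 4. The nearest libraries were Lmnb1-/- replicate 2 and wild type replicate 2. Its log2 fold change was -0.23 (SE 0.10, 95% interval -0.45 to -0.01, unadjusted p = 0.0430, adjusted p = 0.348 by edgeR). Counting error was 1.39 to 2.44% of the count in a library. The nearest libraries, at 1711 and 1729 CPM, differed by less than this, so their order is not secure. The SD of log2 CPM within genotypes was 0.10 for Grb10, against a median of 0.24 over all tested genes.

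Mest, which encodes a membrane enzyme of the alpha/beta hydrolase fold and is used as a mesoderm marker, was higher in every Lmnb1-/- library. It had 25.1, 28.0 and 24.2 CPM in Lmnb1-/- replicates 1 to 3, against 15.7, 14.5, 18.5 and 22.8 CPM in wild type replicates 1 to 4. Wild type replicate 4 came closest to the Lmnb1-/- libraries. The log2 fold change was 0.50 (SE 0.20, 95% interval 0.06 to 0.93, unadjusted p = 0.0283, adjusted p = 0.307 by edgeR). Counts of 14 to 78 per library put the counting error of Mest between 11.3 and 26.7%. Mest overlaps the oppositely oriented Copg2 in the annotation and strand was not recorded by the library kit, so reads of the overlap cannot be told apart. The same limit holds for Mest and its antisense gene Gm44296. It also holds for H19, Meg3, Plagl1, Ndn, Cdkn1c and Zdbf2, which overlap oppositely oriented noncoding genes.

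Among genes that act on proliferation, Cdkn1c encodes the cyclin-dependent kinase inhibitor p57Kip2. It had 115, 84.7 and 104 CPM in Lmnb1-/- replicates 1 to 3, against 76.6, 90.9, 66.3 and 140.0 CPM in wild type replicates 1 to 4. The Lmnb1-/- values lay inside the wild type range, and the highest value belonged to wild type replicate 4. The log2 fold change was 0.13 (SE 0.24, 95% interval -0.42 to 0.68, adjusted p = 0.858 by edgeR), and it was -0.22 in libraries read as male alone. Ndn encodes necdin, a MAGE family protein that binds E2F1 and p53, and it had 116, 90.3 and 109 CPM in Lmnb1-/- against 96.6, 77.5, 108 and 110.5 CPM in wild type libraries. The ranges overlapped, with a log2 fold change of 0.09 (SE 0.14, 95% interval -0.21 to 0.39, adjusted p = 0.828 by edgeR), and 0.0036 without Lmnb1-/- replicate 1.

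Peg3, Plagl1 and Zdbf2 encode zinc finger proteins. Peg3 had 1730.0, 1418 and 1341 CPM in Lmnb1-/- replicates 1 to 3, against 1550.2, 1478, 1132 and 1354 CPM in wild type replicates 1 to 4, and the groups overlapped. Its log2 fold change was 0.12 (SE 0.13, 95% interval -0.16 to 0.40, adjusted p = 0.725 by edgeR), and 0.0013 without Lmnb1-/- replicate 1, the library of highest Peg3. Plagl1, the transcription factor of the imprinted network, had 119, 123 and 216 CPM in Lmnb1-/- against 162, 314, 183 and 231 CPM in wild type libraries. Lmnb1-/- replicates 1 and 2 lay below all wild type libraries, and Lmnb1-/- replicate 3 lay among them. The log2 fold change of Plagl1 was -0.53 (SE 0.30, 95% interval -1.25 to 0.19, adjusted p = 0.498 by edgeR), and it became -0.33 when wild type replicate 2 was left out, or -0.85 when Lmnb1-/- replicate 3 was.

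Zdbf2 had 25.4, 34.8 and 42.1 CPM in Lmnb1-/- replicates 1 to 3, against 40.0, 44.4, 41.4 and 49.8 CPM in wild type replicates 1 to 4. Lmnb1-/- replicates 1 and 2 lay below the wild type range and replicate 3 inside it, as for Plagl1. The log2 fold change was -0.38 (SE 0.19, 95% interval -0.78 to 0.02, adjusted p = 0.385 by edgeR). It was -0.19 without Lmnb1-/- replicate 1, which held the lowest value.

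**Figure D2:**
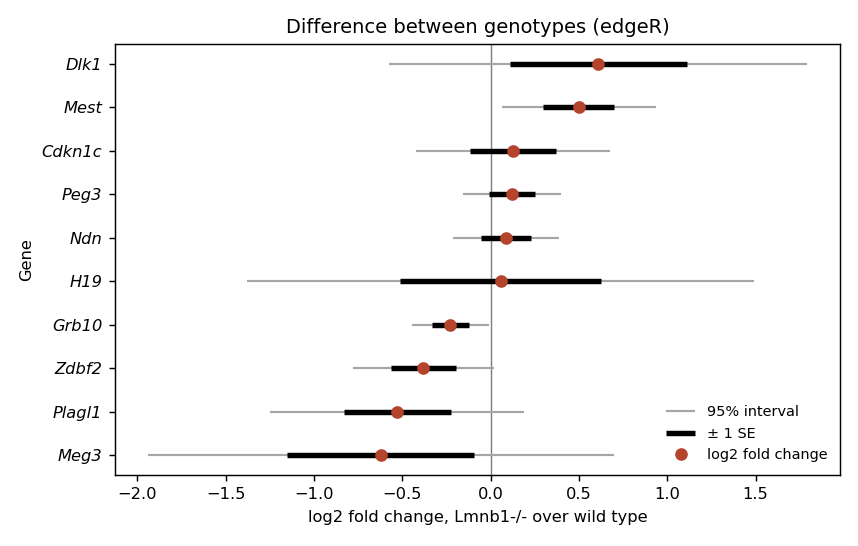
Log2 fold change of each gene, Lmnb1-/- over wild type, as a point with a thick bar of 1 SE either side and a thin bar for the 95% interval from the edgeR fit. The intervals of Mest and Grb10 lie to one side of 0, unadjusted for the number of genes, and the widest, those of H19, Meg3 and Dlk1, reach from -1.94 to 1.79.

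H19, Dlk1 and Meg3 had the widest spread of the 10 genes over the 7 libraries, with a coefficient of variation of CPM of 50.7% for H19, 54.3% for Dlk1 and 64.2% for Meg3. Within Lmnb1-/- libraries alone Plagl1, at 35.9%, was above H19, at 33.5%, and Meg3, at 27.3%. H19 had 775, 1458 and 1546 CPM in Lmnb1-/- replicates 1 to 3, against 773, 605, 1061 and 2388 CPM in wild type replicates 1 to 4. The highest and the lowest library were both wild type, 3.94-fold apart. Its log2 fold change was 0.06 (SE 0.57, 95% interval -1.38 to 1.49, adjusted p = 0.983 by edgeR). It became 0.64 when wild type replicate 4 was left out, and -0.16 when wild type replicate 2 was, so its direction rested on single libraries. In libraries read as male alone it was -0.26. Counting error of H19 was at most 4.13% in a library. The SD of its log2 CPM over the 7 libraries, 0.70, was larger than that of 96.0% of tested genes.

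The row for Mir675, whose hairpin lies in an H19 exon, followed H19. It had 24.8, 43.7 and 49.8 CPM in Lmnb1-/- replicates 1 to 3, against 30.01, 18.6, 36.9 and 94.9 CPM in wild type replicates 1 to 4. Its count was 3.001 to 3.22% of the H19 count in Lmnb1-/- and 3.07 to 3.97% in wild type libraries. The row counts reads of the long RNA or its precursor over the hairpin and is no measure of mature miR-675. The rows for Mir335 and Mir770 held 0 and 1 count in all 7 libraries together.

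The 3 libraries with the most H19, wild type replicate 4 and Lmnb1-/- replicates 2 and 3, also had the highest sums of macrophage and leukocyte markers. These sums were 38.6, 240.1 and 557 CPM in Lmnb1-/- replicates 1 to 3 and 121, 72.3, 74.6 and 301 CPM in wild type replicates 1 to 4. Erythroid markers were highest in the same 3 libraries, with sums of 22.8, 98.2 and 259 CPM in Lmnb1-/- replicates 1 to 3 and 47.0, 94.02, 20.3 and 209 CPM in wild type replicates 1 to 4. The part of these cells in the H19 level was not tested.

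Igf2, the growth factor gene that shares an enhancer domain with H19, lay lower in every Lmnb1-/- library. It had 225, 351 and 291 CPM in Lmnb1-/- replicates 1 to 3, against 384, 355, 381 and 556 CPM in wild type replicates 1 to 4. The nearest libraries were Lmnb1-/- replicate 2 and wild type replicate 2. Its log2 fold change of -0.54 (SE 0.18, 95% interval -0.95 to -0.14) did not pass over all genes (adjusted p = 0.240 by edgeR). Igf2r, the imprinted receptor that clears this factor, was at 743 ± 67.6 CPM in Lmnb1-/- (SD, n = 3) and 863 ± 65.0 CPM in wild type (SD, n = 4), and its adjusted p was 0.396 by edgeR. Across the 7 libraries, H19 and Igf2 had a Pearson r of 0.51 (exact permutation p = 0.251) and a Spearman rho of 0.11 (exact permutation p = 0.840), and an r of 0.15 without wild type replicates 2 and 4, those farthest from the H19 median. Without wild type replicate 4 and Lmnb1-/- replicate 1, those farthest from the Igf2 median, the r was -0.59. On deviations from the genotype means the r was 0.90, which was not tested. H19 and Igf2 were 1 of 11 neighbour pairs examined, chosen after their values were seen. The adjusted p of their r over the 7 libraries was 0.690.

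Dlk1, a transmembrane protein of the Notch ligand family that lacks the usual receptor-binding motif, was the least even of the coding genes. It had 29.9, 15.1 and 58.1 CPM in Lmnb1-/- replicates 1 to 3, against 22.2, 31.0, 11.3 and 29.1 CPM in wild type replicates 1 to 4. Lmnb1-/- replicate 3 stood above all other libraries and wild type replicate 3 below. The log2 fold change of 0.61 (SE 0.50, 95% interval -0.57 to 1.79, adjusted p = 0.646 by edgeR) was 0.05 without Lmnb1-/- replicate 3. Counts of 27 to 113 gave Dlk1 a counting error of 9.41 to 19.2% in a library.

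Meg3, the noncoding RNA of the same domain, had 84.9, 58.9 and 103.8 CPM in Lmnb1-/- replicates 1 to 3, against 90.0, 273, 93.0 and 82.2 CPM in wild type replicates 1 to 4. Wild type replicate 2 stood at 273 CPM and the other wild type libraries lay within the Lmnb1-/- range. The log2 fold change of -0.62 (SE 0.53, 95% interval -1.94 to 0.70, adjusted p = 0.663 by edgeR) was -0.09 without that library. Wild type replicate 2 was also the library of lowest depth and of highest fibroblast marker sum, and their part in its Meg3 level was not tested. Of the reads counted for Meg3 in both deposited count columns, 19.1% were in the second, which was not used here and whose meaning is not stated, so its level is uncertain to that extent. For Plagl1 that share was 9.31% and for the other members at most 0.713%. Over all gene rows it was 16.6 to 19.6% in a library.

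The noncoding neighbours of Meg3, named after their values were seen, were not high in wild type replicate 2. Rian, a noncoding RNA downstream of Meg3 on the maternal allele, had 485, 508 and 572 CPM in Lmnb1-/- replicates 1 to 3, against 476, 545.5, 575 and 557 CPM in wild type replicates 1 to 4. Mirg, the next noncoding RNA, was at 26.6 ± 1.77 CPM in Lmnb1-/- (SD, n = 3) and 22.1 ± 6.66 CPM in wild type (SD, n = 4), and wild type replicate 2 held its lowest value, 15.5 CPM. Rtl1, a retrotransposon-derived gene needed in the placenta, was at 49.3 ± 5.79 CPM in Lmnb1-/- and 41.9 ± 5.85 CPM in wild type, with 50.6 CPM in wild type replicate 2, the highest wild type value.

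**Figure D3:**
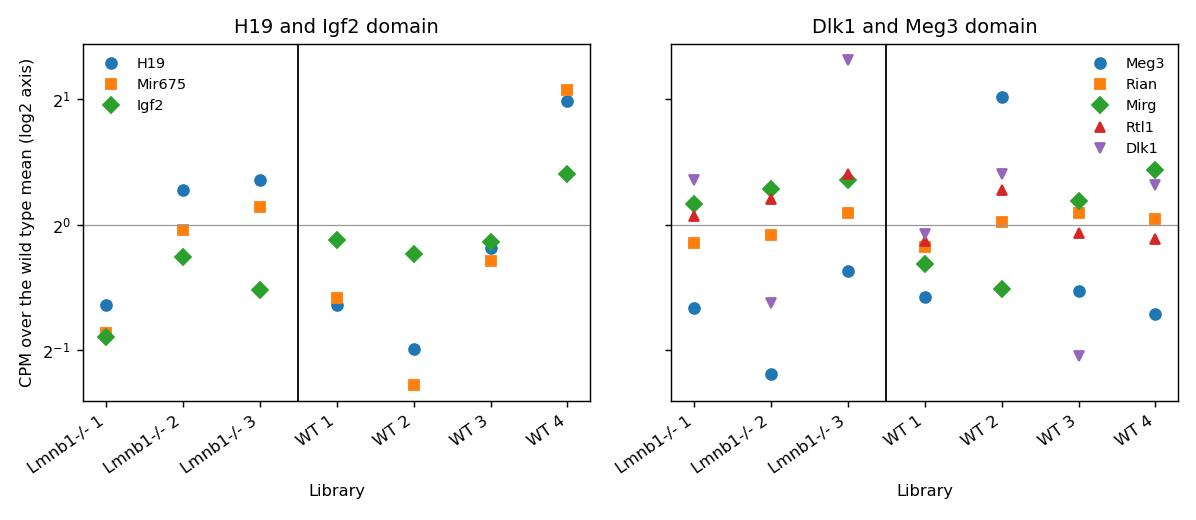
CPM of each gene in each library over its wild type mean, on a log2 axis, for the H19 and Igf2 domain (left) and the Dlk1 and Meg3 domain (right). H19 and Mir675 are both highest in wild type replicate 4, whereas Meg3 is high in wild type replicate 2, at 273 CPM, and Rian and Mirg are not.

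No shared movement of the imprinted growth genes across the 7 libraries was detected. Over the 45 pairs of members the median Pearson r of log2 CPM was 0.06, and 24 pairs were above 0. Over all 58044925 pairs of tested genes the median was -0.0003 and 49.98% were above 0. An r beyond 0.75 in either direction was reached by 2 of the 45 pairs, 4.44%, and by 7.99% of all pairs. All pairs share the same 7 libraries. After an exact permutation test over the orders of the libraries, two-sided, with Benjamini-Hochberg adjustment over 45 pairs, 0 pairs passed and the smallest adjusted p was 0.342. There were 3 pairs with an unadjusted p under 0.05.

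The pairs of highest correlation were Plagl1 with Zdbf2, Meg3 with Plagl1, and Dlk1 with Cdkn1c. For Plagl1 and Zdbf2 the Pearson r was 0.81 (exact permutation p = 0.0228, adjusted 0.342) and the Spearman rho 0.96 (exact permutation p = 0.00278, adjusted 0.125). It was 0.93 without wild type replicate 2 and Lmnb1-/- replicate 1, the libraries farthest from the Plagl1 median, and 0.69 on deviations within genotypes. For Meg3 and Plagl1 the r of 0.79 (exact permutation p = 0.0179, adjusted 0.342) and the rho of 0.57 (exact permutation p = 0.200) went with an r of 0.30 without wild type replicate 2 and Lmnb1-/- replicate 2, the libraries farthest from the Meg3 median. Without wild type replicate 2 and Lmnb1-/- replicate 1, those farthest from the Plagl1 median, it was 0.75. For Dlk1 and Cdkn1c the r was 0.65 (exact permutation p = 0.110, adjusted 0.761), the rho 0.64 (exact permutation p = 0.139), and the r 0.58 without wild type replicate 3 and Lmnb1-/- replicate 3.

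The lowest correlations involved Meg3 and Peg3. Meg3 and Mest had an r of -0.73 (exact permutation p = 0.0198, adjusted 0.342) and a rho of -0.68 (exact permutation p = 0.110), and an r of -0.03 without wild type replicate 2 and Lmnb1-/- replicate 2, the libraries farthest from the Meg3 median, or -0.61 without wild type replicates 1 and 2, those farthest from the Mest median. Peg3 and Zdbf2 had an r of -0.62 (exact permutation p = 0.151, adjusted 0.761) and a rho of -0.50 (exact permutation p = 0.267), and an r of -0.31 without wild type replicate 3 and Lmnb1-/- replicate 1. Meg3 and Ndn had an r of -0.60 (exact permutation p = 0.151, adjusted 0.761) and a rho of -0.29 (exact permutation p = 0.556), and an r of -0.21 without wild type replicate 2 and Lmnb1-/- replicate 2. These 2 libraries were the farthest from the median of both genes.

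**Figure D4:**
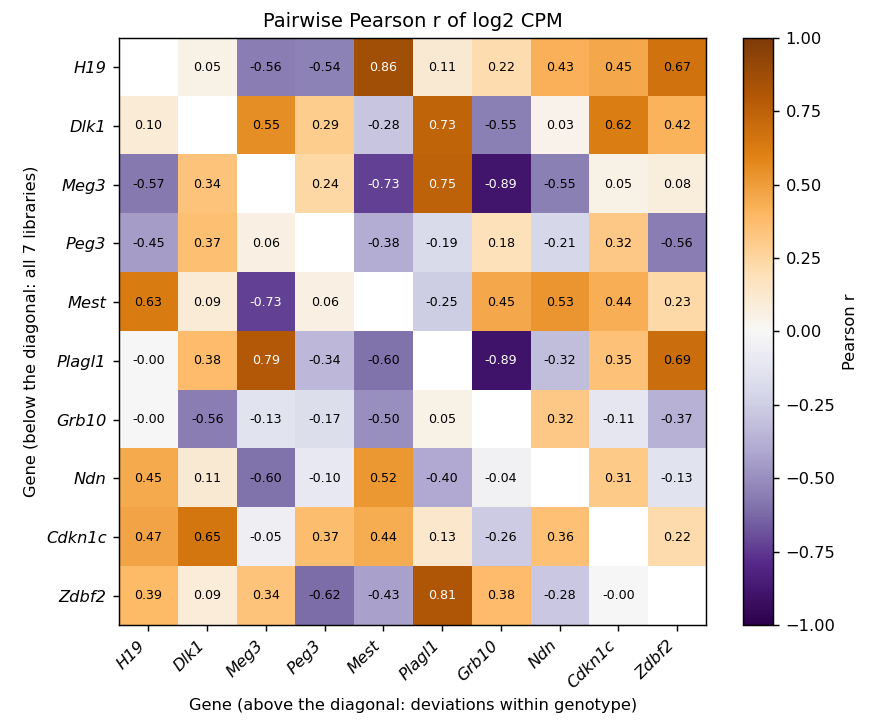
Pearson r of log2 CPM for each pair of genes, over all 7 libraries below the diagonal and on deviations from the genotype means above it. Positive and negative values are mixed on both sides, with a median of 0.06 below and 0.18 above the diagonal.

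On deviations from the mean of each genotype the median r over the 45 pairs was 0.18, with 28 pairs, 62.2%, above 0. Over all pairs of tested genes the median was -0.0003 and 49.98% were above 0. An r beyond 0.75 in either direction was reached by 3 of the 45 pairs, 6.67%, and by 10.9% of all pairs. These 3 were H19 with Mest at 0.86, and Grb10 with Meg3 and with Plagl1, both at -0.89. H19 and Igf2, which is not a member, had an r of 0.90. These values describe the libraries and were not tested. Grouping by expressed allele gave no block of shared movement. The median r was -0.09 over the 6 pairs of maternally expressed genes, of which 1 was above 0, 0.06 over the 15 pairs of paternally expressed genes, of which 8 were above 0, and 0.11 over the 24 mixed pairs, of which 15 were above 0. Log2 fold changes were above 0 in 2 of 4 maternally and 4 of 6 paternally expressed genes.

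Single libraries carried mixed patterns. In Lmnb1-/- replicate 3 and in wild type replicate 4, 8 of the 10 genes were above their own mean, in contrast to 3 of 10 in Lmnb1-/- replicate 2 and wild type replicate 1. Of the 8 genes in each of those libraries 7 were shared, H19, Dlk1, Mest, Plagl1, Ndn, Cdkn1c and Zdbf2. Over all tested genes the share above the mean was 50.5% in Lmnb1-/- replicate 3 and 50.7% in wild type replicate 4. Deviations of all tested genes from their genotype means correlated at 0.33 between these libraries. That was the highest value between any Lmnb1-/- and any wild type library. Such deviations sum to 0 within a genotype, so some of these values are bound to be above 0. Whether the likeness reaches beyond the imprinted growth genes was not tested. Wild type replicate 2 held the highest Meg3 and Plagl1 and the lowest H19, Mest and Ndn. Wild type replicate 3 held the lowest Dlk1, Peg3 and Cdkn1c, and Lmnb1-/- replicate 1 the highest Peg3 and Ndn and the lowest Plagl1 and Zdbf2.

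**Figure D5:**
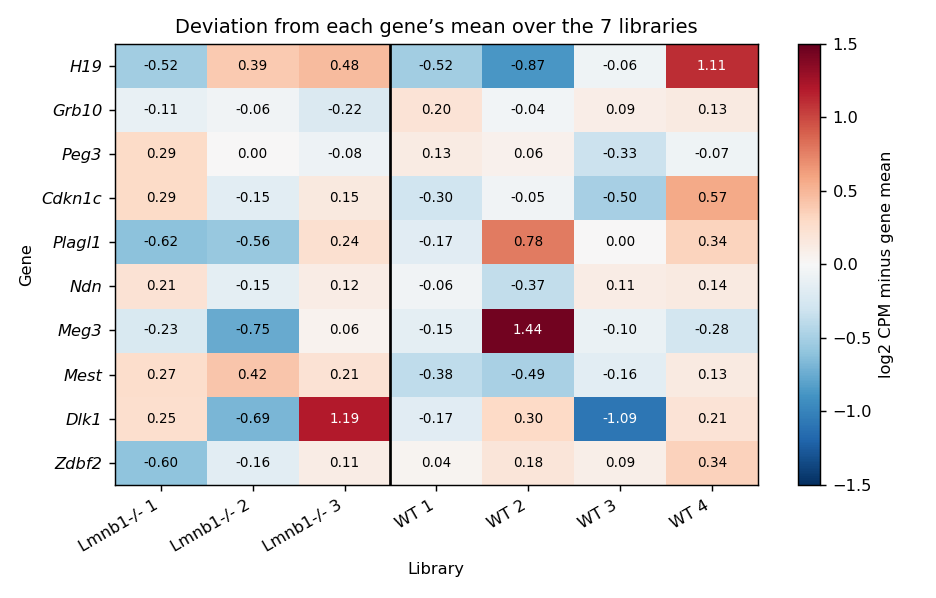
Log2 CPM of each gene in each library minus the gene's mean over the 7 libraries, Lmnb1-/- libraries left of the line and wild type libraries right. No library is high or low for all 10 genes, and the largest deviations are Meg3 at 1.44 in wild type replicate 2, Dlk1 at 1.19 in Lmnb1-/- replicate 3 and H19 at 1.11 in wild type replicate 4.

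The members also differed in how variable they were. The SD of log2 CPM within genotypes was 0.77 for Dlk1, 0.75 for H19 and 0.68 for Meg3, above the values of 97.5%, 97.3% and 96.3% of tested genes. It was 0.10 for Grb10, above that of 5.85% of tested genes, and 0.20, 0.22 and 0.22 for Peg3, Ndn and Mest. Genes with the pattern most like that of the 3 most abundant members were taken from all tested genes by Pearson r over the 7 libraries. For H19 they were Cdc40, Mir675 and Lpl (r = 0.99, 0.98 and 0.97), for Peg3 Slc46a1, 0610007L01Rik and Slc35a4 (r = 0.98, 0.98 and 0.97), and for Grb10 Faf2, Sec22a and Entpd4 (r = 0.98, 0.97 and 0.96). With so few libraries, 40 to 52 genes exceeded an r of 0.9 with each of them.

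Of 61 other imprinted genes listed, all had a row and 7 had no count in any library, and 40 passed the count filter. Of the 40, 1 rose and 0 fell, with 18 above 0, 22 below and a median log2 fold change of -0.02. At an unadjusted p under 0.05 there were 5 of the 40, and 13.6% of all tested genes. The gene that rose was Tfpi2, a protease inhibitor imprinted in the placenta. It had 23.2, 8.97 and 17.5 CPM in Lmnb1-/- replicates 1 to 3, against 6.09, 4.13, 3.77 and 5.06 CPM in wild type replicates 1 to 4, and its log2 difference was 1.80 (SE 0.34, adjusted p = 0.0360 by edgeR). DESeq2 gave it no adjusted p. The call was lost with limma voom (adjusted p = 0.0867), with sex as a covariate (0.128), in male libraries alone (0.101) and on leaving out any 1 library except wild type replicate 1, where the adjusted p was up to 0.200. Tfpi2 had a log2 fold change of 1.75 with limma voom, 1.82 in both analyses by sex and 1.45 to 2.07 over all 16 alternatives that gave an adjusted p. Wild type levels of Tfpi2 were low, as 3 counts made 1.10 to 2.93 CPM of a wild type library.

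Among factors listed as acting on imprints, DNA methylation or their chromatin, edgeR called 0 of 17 tested, with a median log2 fold change of 0.03. Beside 13.6% of all tested genes, 3 of these factors had an unadjusted p under 0.05. Those of smallest p were Yy1, which binds the Peg3 control region, at 90.7 ± 13.4 CPM in Lmnb1-/- (SD, n = 3) and 74.2 ± 5.30 CPM in wild type (SD, n = 4), and Trim28, the corepressor that ZFP57 recruits, at 351 ± 26.2 CPM in Lmnb1-/- and 300.3 ± 21.4 CPM in wild type. Their adjusted p-values were 0.348 and 0.350 by edgeR. The third was Dnmt3a, a methyltransferase that sets imprints in germ cells, at 140.2 ± 7.71 CPM in Lmnb1-/- and 172 ± 29.9 CPM in wild type, with a log2 fold change of -0.30 (unadjusted p = 0.0498, adjusted p = 0.366 by edgeR). Dnmt3a and Dnmt1 were named after their values were seen. Dnmt1, the maintenance DNA methyltransferase, averaged 189 ± 22.2 CPM in Lmnb1-/- (SD, n = 3) and 185 ± 43.3 CPM in wild type (SD, n = 4).

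Partners of the members in growth factor signalling and cell division also had no call, 0 of 21 tested by edgeR, with a median log2 fold change of -0.08. Beside 13.6% of all tested genes, 4 of these partners had an unadjusted p under 0.05. Nedd4, the ubiquitin ligase that binds Grb10, was at 1577 ± 101 CPM in Lmnb1-/- (SD, n = 3) and 2094 ± 159 CPM in wild type (SD, n = 4), with ranges that did not overlap (adjusted p = 0.0967 by edgeR). Ccne2, encoding cyclin E2, whose kinase p57Kip2 inhibits, was at 72.7 ± 6.72 CPM in Lmnb1-/- and 46.3 ± 9.73 CPM in wild type (adjusted p = 0.100 by edgeR). Nedd4 and Ccne2 were each called in 2 of 17 alternatives. For Nedd4 these were DESeq2 and the fit without wild type replicate 1. For Ccne2 they were no filter on low counts and the fit without wild type replicate 1. Ccne1 and Notch3, named after their values were seen, also had an unadjusted p under 0.05, and their ranges overlapped. Ccne1, encoding cyclin E1, was at 58.4 ± 14.3 CPM in Lmnb1-/- and 30.9 ± 9.48 CPM in wild type (adjusted p = 0.100 by edgeR). Notch3 was at 2.38 ± 1.42 CPM in Lmnb1-/- and 6.53 ± 2.78 CPM in wild type (adjusted p = 0.290 by edgeR).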

How the data were processed

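RNA was sequenced from 7 epicardial explant libraries made with a TruSeq RNA v2 kit, per the labels' protocols, a kit that does not keep strand. TopHat, edgeR and the mm9 build are named, without versions, per the submitters' processing notes; counting program and annotation are not given in the sources used here. The deposited tables hold whole-number counts per gene in 2 unnamed columns, whose totals differ between libraries as raw counts do. The first was used, and the meaning of neither is stated.

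Counts were filtered with filterByExpr, scaled by TMM and tested with edgeR 4.0.16 (quasi-likelihood, robust, no covariate; limma 3.58.1, DESeq2 1.42.0, R 4.3.3), with a threshold of 0.05. The standard error is the fold change over the root of F, and 95% intervals use the fit's degrees of freedom. The procedure was tested on counts simulated with the spread typical of each gene's level. It recovered 18.4% of 1.5-fold and 79.6% of 2-fold changes, with 5 false calls among 146, so most 1.5-fold changes would be missed. Correlations used log2 CPM with a prior count of 2. The members and gene lists were chosen with earlier results of these data known. Named beyond the members were called list genes or, without one, those of smallest p, Igf2 and Igf2r, the 3 highest and lowest pairs, and the 3 genes most alike. Alternatives changed scaling, filter, tool, count column, block, sex and libraries. Exon lengths came from GENCODE M21 and sequences from RefSeq GRCm38.p6, not mm9; no coordinate was joined to the counts. Replicate pairs within a genotype differed by a chi-square of 2.22 to 7.71 per degree of freedom, so none was counted as a repeat. Counting errors cover counting only.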

Additional observations from a re-analysis of the deposited data

Results flagged for a closer look

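In 26 wild type groups of 4 libraries examined, 4 had a library far from the others, where chance flags about 1 in 20. Meg3 was at 273 CPM in wild type replicate 2, with the next library at 93.0 CPM. Igf2 was at 556 CPM in wild type replicate 4, the library of highest H19, with the next at 384 CPM. Rtl1 was at 50.6 CPM in wild type replicate 2, with the next at 39.9 CPM. Trim28 was at 332 CPM in wild type replicate 1, with the next at 292 CPM. Groups of 3 Lmnb1-/- libraries were not examined. The second count column, not used in the comparisons above, held 19.1% of the Meg3 reads and 9.31% of the Plagl1 reads of both columns, the highest shares among the 10 members. Over all gene rows it held 16.6 to 19.6% of a library. The Meg3 share was thus near that of the whole table and the Plagl1 share below it.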

How the results depend on the processing

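No member was called under any of 17 alternatives, where the smallest adjusted p was 0.236, and 8 of 10 members kept the sign of their log2 fold change throughout, although without Lmnb1-/- replicate 1 Peg3 came to 0.0013 and Ndn to 0.0036. H19 turned negative with sex as a covariate (-0.26), in male libraries alone (-0.26), and without wild type replicate 1 (-0.11), 2 (-0.16) or 3 (-0.0019) or Lmnb1-/- replicate 2 (-0.06) or 3 (-0.11). Cdkn1c turned negative with sex as a covariate (-0.21), in male libraries alone (-0.22) and without wild type replicate 3 (-0.0202). On leaving out 1 library H19 reached 0.64 and Cdkn1c 0.42, both without wild type replicate 4. The 76 genes called over the whole table became 180 with no filter on low counts, 175 with DESeq2, 46 with limma voom, 44 with both count columns summed and 38 with sex as a covariate, and the cause was not tested. On leaving out 1 library it was 4, 3 and 13 without Lmnb1-/- replicates 1 to 3, and 279, 40, 4 and 28 without wild type replicates 1 to 4. Same-numbered libraries are not stated to be paired, and their deviations correlated at 0.26, -0.16 and -0.09 for numbers 1, 2 and 3. With a replicate block 77 genes and 0 members were called, and only 35 of these genes were among the 76. Of the 38 genes called with sex as a covariate, 24 were among the 76. The median r over pairs was 0.18 on deviations within genotypes and from -0.0313 to 0.19 on leaving out 1 library, lowest without Lmnb1-/- replicate 3 and highest without wild type replicate 2. Counts limit Mest, Dlk1 and Zdbf2 most.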
